A study of Rattus norvegicus with 9 samples.

Results

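Insulin-like growth factors, their receptor and their binding proteins were examined in the hypothalamus of male rats through every probe set that the array's annotation gives to Igf1, Igf2, Igf1r, Igfbp2, Igfbp3, Igfbp4, Igfbp5 or Igfbp6 alone. This gave 20 probe sets for 8 genes, of 31042 probe sets tested and 14217 named genes in all. Expression had been measured on 9 arrays, 1 per rat, in animals 13 weeks old. There were 4 noodle-diet rats (numbers 1, 4, 7 and 13) and 5 control-diet rats (numbers 2, 5, 8, 11 and 14). Per the labels and the series description, noodle-diet rats ate a diet that was 30% instant noodle by weight, with 26% of its energy as fat, and the control diet was the same but without seasonings. The labels give the feeding period both as 30 days and as 4 weeks, and put intake at about 60 g per kg body weight a day in both groups. The sources used here give neither the strain nor the time of dissection.

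IGF-I and IGF-II are small secreted hormones related to insulin that promote growth and survival of cells, and both act mainly through the tyrosine kinase receptor encoded by Igf1r. The binding proteins hold them in extracellular fluid and either limit or aid their reach to the receptor. In the rodent brain Igf2 is known mainly from the leptomeninges, the choroid plexus and vessels, whereas Igf1r is widespread. The meninges wrap the hypothalamus, so a dissected block can carry a variable amount of them. Ogn (osteoglycin, a small matrix proteoglycan) and Col1a2 (a chain of type I collagen) are genes of meningeal fibroblasts and served as markers of that tissue.

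The tissue label was checked against 5 neuropeptide genes of the hypothalamus (Pmch, Hcrt, Avp, Oxt and Cartpt). All 5 were measured, and the lowest of them, Hcrt, had a mean above 96.4% of probe sets. Of 12 meninges and fibroblast markers, 11 were measured and 11 were variable. Their summed log2 values ran from 73.7 to 87.2 in noodle-diet rats and from 73.1 to 85.1 in control rats. The mean deviation of these 11 genes from their mean over all rats was -0.015 ± 0.55 in noodle-diet rats (SD, n = 4) and 0.012 ± 0.53 in control rats (SD, n = 5).

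Deposited values are on a log2 scale and barely moved between rats for most probe sets. Probe sets that ranged over more than 0.05 log2 units across the 9 rats are called variable (3.94% of those tested), and those under 0.01 compressed (95.9%). Among the 20 IGF probe sets, 6 were variable, 13 were compressed and 1 lay between. The variable ones were 1 of 4 for Igf2, 1 of 2 for Igf1r, 1 of 1 for Igfbp2, 2 of 5 for Igfbp5 and 1 of 2 for Igfbp6. Igf1, Igfbp3 and Igfbp4 had compressed probe sets only. Differences that small are no measure of how far a transcript changed, so compressed probe sets are summarised by counts and ranges. Nearest to the limit of 0.05 were Igfbp6 1372168_s_at below it, with a range of 0.033, and Igf1r 1368123_at above it, with 0.35.

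**Figure D1:**
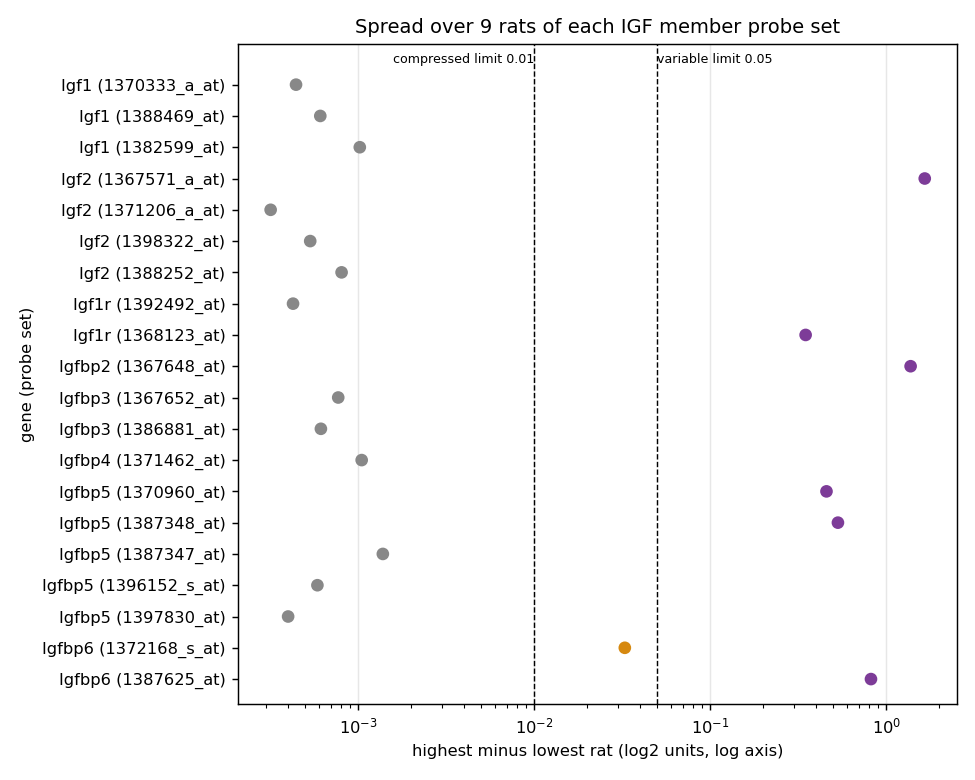
Range over 9 rats (highest minus lowest deposited value, log2 units on a log axis) of each of the 20 IGF probe sets, with dashed lines at 0.01 and 0.05. Purple points are variable, grey points compressed and the orange point lies between; 13 probe sets lie under 0.01, and Igf2 1367571_a_at (1.66) and Igfbp2 1367648_at (1.38) range widest.

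Upstream sequence is shown for the 3 genes that followed the meningeal markers (Igf2, Igfbp2 and Igfbp6) and, for contrast, for Igfbp5, which lies next to Igfbp2 among protein-coding genes of chromosome 9 in the RefSeq gene table. Each line holds the 200 bases before an annotated transcription start, 5′ to 3′ on the gene's strand, from RefSeq on build GRCr8. Capitals mark a GC box (GGGCGG) on either strand. The windows are chr1:207250476-207250675 on the minus strand for Igf2, chr9:81864611-81864810 on the plus strand for Igfbp2, chr7:135154719-135154918 on the plus strand for Igfbp6 and chr9:81914188-81914387 on the minus strand for Igfbp5.
Igf2: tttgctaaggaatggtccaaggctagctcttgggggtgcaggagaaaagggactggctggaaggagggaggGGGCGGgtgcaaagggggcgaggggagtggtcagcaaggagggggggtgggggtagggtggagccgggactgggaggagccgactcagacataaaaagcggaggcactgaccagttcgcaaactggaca
Igfbp2: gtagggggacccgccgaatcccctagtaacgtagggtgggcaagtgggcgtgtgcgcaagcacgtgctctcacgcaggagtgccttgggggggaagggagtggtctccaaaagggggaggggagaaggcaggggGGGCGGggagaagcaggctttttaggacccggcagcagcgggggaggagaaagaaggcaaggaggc
Igfbp6: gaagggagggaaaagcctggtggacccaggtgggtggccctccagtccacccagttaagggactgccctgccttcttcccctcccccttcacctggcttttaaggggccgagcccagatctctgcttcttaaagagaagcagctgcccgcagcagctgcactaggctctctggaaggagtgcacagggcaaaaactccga
Igfbp5: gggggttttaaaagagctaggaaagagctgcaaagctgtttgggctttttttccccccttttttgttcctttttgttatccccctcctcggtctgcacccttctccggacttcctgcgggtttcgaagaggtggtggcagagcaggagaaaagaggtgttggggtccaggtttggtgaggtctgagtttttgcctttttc
The Igf2 window shown is 1 of 2 annotated for that gene, and its other window holds no GC box in these 200 bases. A GC box was found once in the Igf2 window shown and once in that of Igfbp2, and not in those of Igfbp6 and Igfbp5. The window of Igf1r, which did not pass against either marker and is not shown, also held 1. Of all 33469 windows of that length in the table, 28.6% hold a GC box. The TATA box letters TATAAA, searched on either strand, are in none of the 4 windows shown and in 10.4% of all windows. The only IGF window with that motif was that of Igfbp4. Whether a window holds such letters or not does not show whether any factor binds there. Base composition differed among the 4 windows shown, with 62% G or C for Igf2, 65.5% for Igfbp2, 60% for Igfbp6 and 50.5% for Igfbp5. In windows not shown it was 78.5% for Igf1r, 73% for Igfbp3, 70% for Igfbp4, 64% for the other Igf2 window and 47% for Igf1. Neither the GC box nor base composition therefore set apart the genes that followed the markers.

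Of the ligands, Igf2 was the member that varied most between rats, and it varied on both diets. Its variable probe set (1367571_a_at) stood at 9.65, 8.41, 8.37 and 9.15 in noodle-diet rats 1, 4, 7 and 13, against 9.44, 9.33, 9.63, 7.99 and 8.05 in control rats 2, 5, 8, 11 and 14. High and low rats occurred on both diets, and the range over all 9 spans 3.15-fold. The diets overlapped between 8.37 and 9.63, and the 2 lowest rats, control rats 11 and 14, lay below every noodle-diet rat. The mean was 8.89 ± 0.62 in noodle-diet rats (SD, n = 4) and 8.89 ± 0.80 in control rats (SD, n = 5). The other 3 Igf2 probe sets were compressed, at means of 6.63, 6.32 and 5.93, and did not show these differences. Igf1, the ligand that mediates much of the action of growth hormone, had 3 compressed probe sets at means of 6.59, 6.12 and 5.80. Neither a diet difference nor a relation with meningeal genes was read for it.

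The receptor gene Igf1r varied much less. Its variable probe set (1368123_at) measured 7.64, 7.41, 7.30 and 7.44 in noodle-diet rats 1, 4, 7 and 13, against 7.46, 7.51, 7.40, 7.31 and 7.34 in control rats 2, 5, 8, 11 and 14. Noodle-diet rat 1 was the highest of all 9 and noodle-diet rat 7 the lowest, so the control rats lay inside the noodle-diet range. Means were 7.45 ± 0.15 in noodle-diet rats and 7.41 ± 0.085 in control rats. The other Igf1r probe set was compressed (mean 7.83).

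Igfbp2, a binding protein abundant in cerebrospinal fluid, repeated the pattern of Igf2. It measured 8.93, 7.63, 7.64 and 8.44 in noodle-diet rats 1, 4, 7 and 13, against 8.66, 8.36, 8.79, 7.72 and 7.56 in control rats 2, 5, 8, 11 and 14. The same 5 rats were high for Igfbp2 and for Igf2 (noodle-diet rats 1 and 13 and control rats 2, 5 and 8). Between the lowest of these and the highest of the remaining 4 rats lay a gap of 0.64 log2 units for Igfbp2 and of 0.74 for Igf2. Means of Igfbp2 were 8.16 ± 0.64 in noodle-diet rats and 8.22 ± 0.55 in control rats.

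Igfbp6, a binding protein that prefers IGF-II over IGF-I, divided the rats the same way over a smaller range. Its variable probe set (1387625_at) measured 7.11, 6.45, 6.34 and 6.63 in noodle-diet rats 1, 4, 7 and 13, against 6.83, 6.66, 7.10, 6.29 and 6.33 in control rats 2, 5, 8, 11 and 14. The 9 rats stood in the same order for this probe set, for Igf2 and for Ogn. Means were 6.63 ± 0.34 in noodle-diet rats and 6.64 ± 0.34 in control rats. The second Igfbp6 probe set (1372168_s_at) moved in like manner within a span of 0.033, with 6.938, 6.918, 6.913 and 6.919 in noodle-diet rats 1, 4, 7 and 13, against 6.942, 6.926, 6.938, 6.912 and 6.909 in control rats 2, 5, 8, 11 and 14.

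Igfbp5, a binding protein that attaches to extracellular matrix, ordered the rats in another way. The probe set 1370960_at measured 8.90, 8.87, 8.54 and 8.87 in noodle-diet rats 1, 4, 7 and 13, against 8.78, 8.99, 8.53, 8.75 and 8.60 in control rats 2, 5, 8, 11 and 14. Control rat 8, among the highest for Igf2, Igfbp2 and Igfbp6, was the lowest here. The probe set 1387348_at measured 7.83, 7.64, 7.30 and 7.72 in noodle-diet rats 1, 4, 7 and 13, against 7.73, 7.75, 7.34, 7.64 and 7.42 in control rats 2, 5, 8, 11 and 14. Noodle-diet rat 7 and control rats 8 and 14 were the 3 lowest in both probe sets, which were alike over the 9 rats (r = 0.93). The remaining 3 Igfbp5 probe sets were compressed.

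Igfbp3, the chief carrier of IGF in blood, had 2 compressed probe sets (means 6.89 and 6.27), and Igfbp4, a widely made binding protein, had 1 (6.87). Over all 13 compressed IGF probe sets the range between rats was 0.00032 to 0.0014 log2 units. Probe sets differ in response, so the means of different probe sets are not compared as transcript levels.

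**Figure D2:**
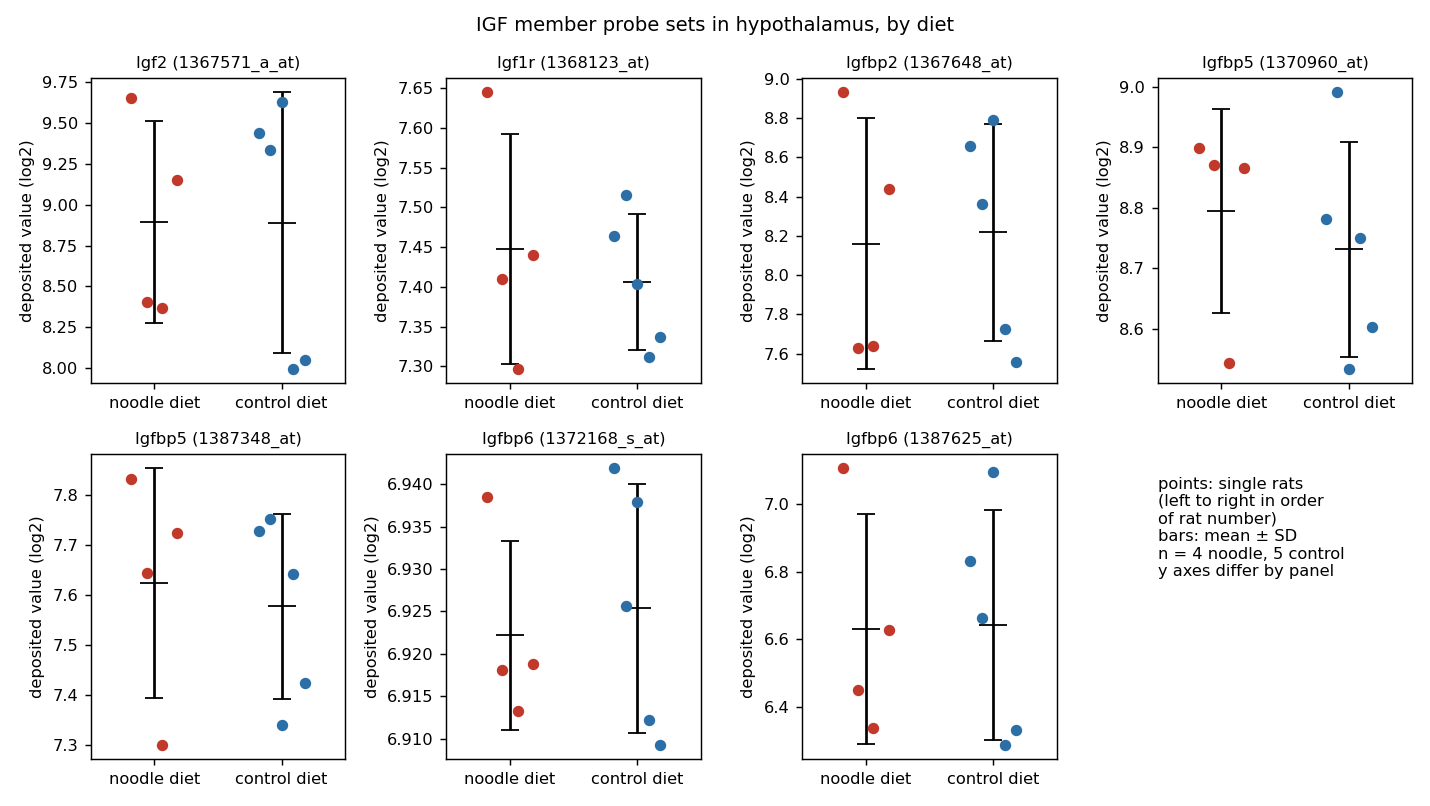
Deposited log2 values of the 7 IGF probe sets that are not compressed, 1 panel each with its own axis: noodle-diet rats (red, n = 4) on the left and control rats (blue, n = 5) on the right of each panel, with mean and SD as black bars. The diets overlap in every panel. In the Igf2 and Igfbp2 panels each diet holds high and low rats.

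No IGF probe set differed between the diets by limma, a linear model with moderated variances fitted on all probe sets. The differences, noodle diet minus control diet, were 0.0060 for Igf2 (SE 0.46, 95% interval -1.07 to 1.08), 0.041 for Igf1r (SE 0.073, -0.13 to 0.21) and -0.059 for Igfbp2 (SE 0.38, -0.93 to 0.81). For the 2 variable Igfbp5 probe sets they were 0.063 (1370960_at, SE 0.11, -0.19 to 0.32) and 0.047 (1387348_at, SE 0.13, -0.26 to 0.35). For Igfbp6 1387625_at the difference was -0.011 (SE 0.22, -0.51 to 0.49). The intervals of Igf2 and Igfbp2 are wide, so with diet alone in the model they include changes of up to about 1 log2 unit in either direction. A call needed an adjusted p under 0.05, which is stricter than these intervals, so still larger changes could have been missed with these 9 rats. The intervals with Ogn as a covariate, given further on, are narrower.

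By limma 0 of the 20 IGF probe sets had an adjusted p under 0.05 (Benjamini-Hochberg over 31042 probe sets), and 0% of all probe sets did. At an unadjusted p under 0.05 there were 0 IGF probe sets, against 2.29% of all probe sets. Adjusted p rounded to 1 for every IGF probe set described. The diets overlapped in all 20 IGF probe sets, and they did not overlap in 0.567% of all probe sets. Among the 13 compressed probe sets, 3 were higher and 10 lower on the noodle diet, by -0.00025 to 5.4e-05, with a lowest unadjusted p of 0.212. Of all probe sets 14913 were higher and 16129 lower on the noodle diet. Several of these directions turned when 1 rat was left out. The difference of Igf2 became negative without noodle-diet rat 1 (-0.25) or 13 (-0.079) or control rat 11 (-0.22) or 14 (-0.20). That of Igfbp2 became positive without noodle-diet rat 4 (0.12) or 7 (0.11) or control rat 2 (0.051) or 8 (0.084). That of Igfbp6 1387625_at became positive without the same 4 rats (0.049, 0.086, 0.036 and 0.10). Igf1r turned to -0.024 without noodle-diet rat 1, and Igfbp5 1387348_at to -0.022 without that rat and to -0.012 without control rat 8.

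The relation with meningeal tissue was then measured as a slope, in log2 units of an IGF probe set per log2 unit of Ogn or Col1a2, with diet as a covariate. Ogn (1376749_at) itself stood at 8.71, 7.13, 6.92 and 7.89 in noodle-diet rats 1, 4, 7 and 13, against 8.13, 7.99, 8.33, 6.80 and 6.82 in control rats 2, 5, 8, 11 and 14. Col1a2 (1370155_at) stood at 9.005, 7.96, 7.78 and 8.40 in those noodle-diet rats, against 8.81, 8.59, 8.82, 7.69 and 7.59 in the control rats. Both markers had high and low rats on each diet, and neither differed between diets (Ogn 0.051, SE 0.49; Col1a2 -0.0092, SE 0.37). No rat had an Ogn value between 7.13 and 7.89, which left 5 rats above that gap (2 noodle-diet, 3 control) and 4 below it (2 noodle-diet, 2 control). Because of this gap, r values are given here as measures of likeness with no p.

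Igf2, Igfbp2 and Igfbp6 followed both markers, by limma. Ogn and Col1a2 were themselves alike over the 9 rats (r = 0.99), so the second marker is not an independent check on the first. Against Ogn the slope was 0.92 for Igf2 (SE 0.065, adjusted p = 0.0043), 0.75 for Igfbp2 (SE 0.050, adjusted p = 0.0033) and 0.42 for Igfbp6 1387625_at (SE 0.045, adjusted p = 0.017). Against Col1a2 it was 1.23 for Igf2 (SE 0.075, adjusted p = 0.0021), 0.99 for Igfbp2 (SE 0.085, adjusted p = 0.0070) and 0.56 for Igfbp6 1387625_at (SE 0.068, adjusted p = 0.027). The narrow-ranged Igfbp6 1372168_s_at passed against Col1a2 (slope 0.022, SE 0.0027, adjusted p = 0.029) and not against Ogn (0.016, SE 0.0026, adjusted p = 0.093). The Igfbp6 calls were the least stable when 1 rat was left out. That of 1387625_at against Ogn was lost without noodle-diet rat 1, 4 or 7 or control rat 2, 11 or 14, with adjusted p by limma between 0.058 and 0.17. Against Col1a2 it was lost without any of those rats or noodle-diet rat 13, and the call of 1372168_s_at was lost without noodle-diet rat 1, 4 or 7 or control rat 2, 8, 11 or 14. Igfbp2 lost its call against Col1a2 without noodle-diet rat 1 (adjusted p = 0.071 by limma). Likeness to Ogn over 9 rats was r = 0.98 for Igf2, 0.98 for Igfbp2 and 0.96 for Igfbp6 1387625_at. Without control rats 11 and 14, the 2 farthest from the median of Ogn, r was 0.98 for Igf2, 0.98 for Igfbp2 and 0.94 for Igfbp6 1387625_at. In bulk tissue, fewer cells of a type and less RNA per cell cannot be told apart.

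In total 3 of the 20 IGF probe sets passed against Ogn and 4 against Col1a2 by limma, all with positive slopes. Of all probe sets 0.435% passed against Ogn (0.412% rising) and 0.474% against Col1a2 (0.467% rising). Of the 6 variable IGF probe sets 3 passed with a positive slope against Ogn and 3 against Col1a2, beside 8.53% and 9.17% of all variable probe sets. The remaining variable ones, of Igf1r and Igfbp5, had positive slopes on both markers and did not pass. The genes were chosen with earlier results of these data known, so these counts describe the probe sets and lend no further support.

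Igf1r and Igfbp5 did not pass. The slope of Igf1r on Ogn was 0.13 (SE 0.029, adjusted p = 0.22) and on Col1a2 0.17 (SE 0.040, adjusted p = 0.27), with r = 0.85 to Ogn. Both Igf1r slopes passed when the arrays were given a common median or quantile normalization (0.12 to 0.16), which made most of all probe sets pass. The slopes of Igfbp5 on Ogn were 0.081 (1370960_at, SE 0.080, adjusted p = 0.87) and 0.12 (1387348_at, SE 0.090, adjusted p = 0.79), with r of 0.36 and 0.46. Among the 13 compressed IGF probe sets 9 had a positive slope on Ogn (14019 of all 31038 probe sets had), and 0 passed. At an unadjusted p under 0.05, 1 of them did, namely Igfbp3 1386881_at, and 8.79% of all probe sets did. Whether the slopes of these members differ from those of Igf2, Igfbp2 and Igfbp6 was not tested, since probe sets differ in response.

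**Figure D3:**
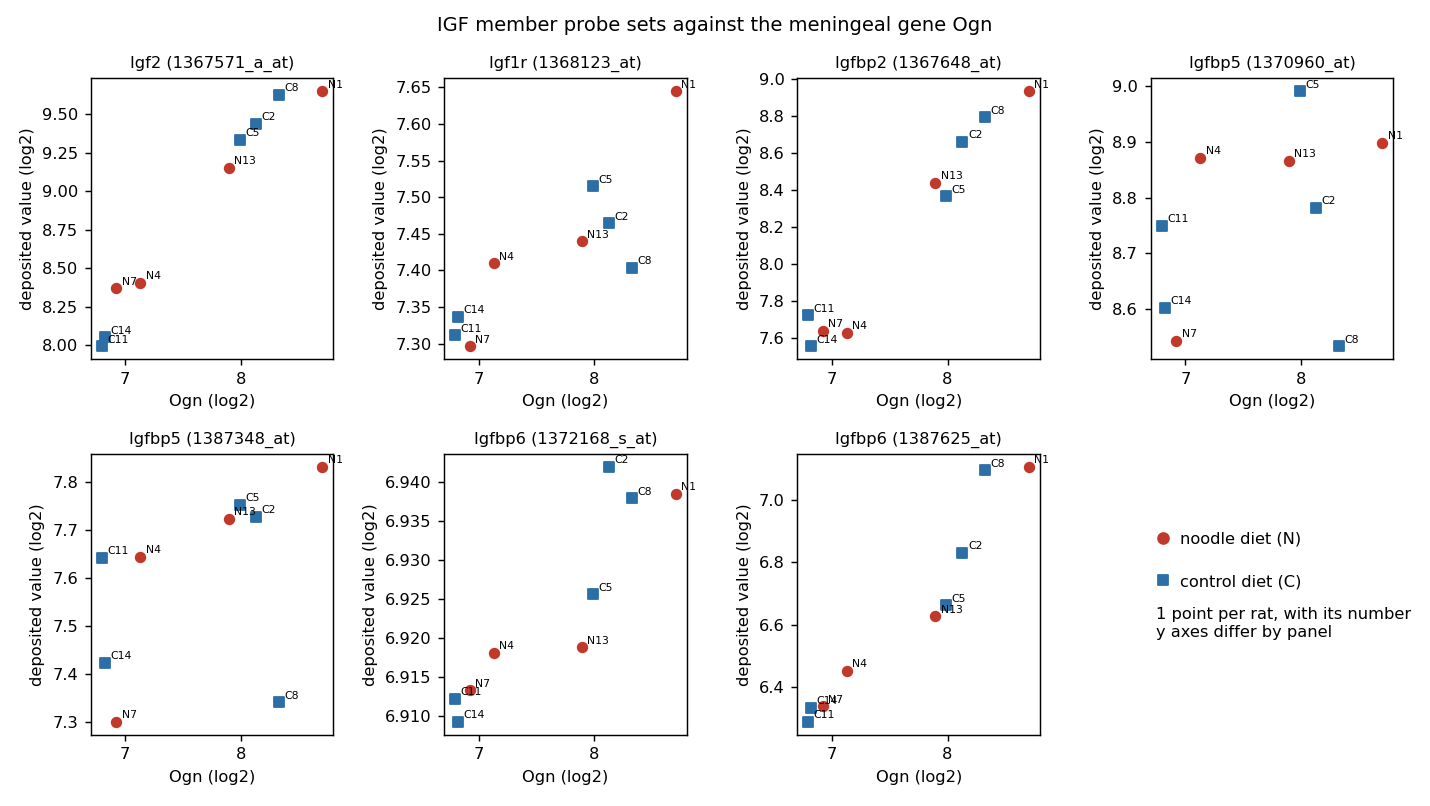
Deposited log2 values of the 7 IGF probe sets that are not compressed (y axes, 1 panel each) against Ogn 1376749_at (x axis, log2), 1 point per rat, with red circles for noodle-diet rats and blue squares for control rats. Igf2, Igfbp2 and both Igfbp6 panels climb with Ogn in both diets. The Igf1r panel also rises over all rats (r = 0.85), though its slope did not pass, and the Igfbp5 panels scatter. Every panel has the same empty stretch between 7.13 and 7.89, because Ogn is the x axis of each.

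The gap between rats bears on these calls. With the rats above and below it set apart by a further covariate, 0 of 31038 probe sets passed by limma for Ogn (1300 had an unadjusted p under 0.05) and 0 of 31040 for Col1a2 (1180 had). This division of the rats was chosen after seeing the data. The slopes on Ogn within the sets were then 0.66 for Igf2 (SE 0.20, unadjusted p = 0.015 and adjusted p = 1), 0.64 for Igfbp2 (SE 0.17, unadjusted p = 0.0087 and adjusted p = 1) and 0.69 for Igfbp6 1387625_at (SE 0.10, unadjusted p = 0.00061 and adjusted p = 0.59), all by limma. For Igfbp5 they were -0.086 (1370960_at, SE 0.27) and -0.012 (1387348_at, SE 0.31). That of Igf1r 1368123_at was 0.18 (SE 0.096, unadjusted p = 0.11 by limma), also positive. All 3 following genes kept a positive slope, and Igf2 and Igfbp6 1387625_at kept the rank order of Ogn within each set.

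Markers of other cell types were set against Ogn in the same way, and none of the 4 chosen passed by limma (adjusted p = 0.29 for Ttr, 0.25 for Gfap, 0.69 for Mog and 0.74 for Cldn5). Unadjusted p by limma was 0.0060 for Ttr, 0.0040 for Gfap, 0.11 for Mog and 0.17 for Cldn5. The choroid plexus gene Ttr had r = 0.81 to Ogn over the 9 rats, the astrocyte gene Gfap 0.84, the myelin gene Mog 0.57 and the endothelial gene Cldn5 -0.43, the last from a compressed probe set. Values of the Cldn5 probe set ranged over only 0.0022 log2 units, so nothing was read from it for vessels. Of 6 endothelium and pericyte markers 1 was variable. Of the measured markers 4 were variable for astrocytes, 4 for oligodendrocytes and 4 for microglia. Of all these only Cldn5, Gfap and Mog were set against Ogn. Among the other meninges markers listed, r to Ogn ran from 0.76 (Dcn) to 0.99 (Aldh1a2), so Dcn was less like Ogn than Gfap or Ttr. Of 6 choroid plexus markers 5 were measured and 1, Ttr, was variable, and their summed log2 values ran from 31.6 to 33.6 in noodle-diet rats and from 31.7 to 33.2 in control rats. The lowest of them, Kl, had a mean of 5.96, above 14.9% of probe sets. Likeness to Ttr was r = 0.76 for Igf2, 0.75 for Igfbp2 and 0.81 for Igfbp6 1387625_at. With Ttr as a further covariate the slopes on Ogn were 0.99 for Igf2 (SE 0.12, adjusted p = 0.28), 0.80 for Igfbp2 (SE 0.096, adjusted p = 0.25) and 0.37 for Igfbp6 1387625_at (SE 0.084, adjusted p = 0.63), and 5 probe sets (0.0161%) passed by limma in all. The slopes of Igf2 and Igfbp2 were as large with Ttr as without it, and their calls were lost. Likeness to Gfap was r = 0.87 for Igf2, 0.79 for Igfbp2, 0.77 for Igfbp6 1387625_at and 0.78 for Igf1r, and the part of astrocytes was not tested.

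Removing the part of each value that goes with Ogn narrowed the diet comparison without producing a call. With Ogn as a covariate the noodle-minus-control difference was -0.041 for Igf2 (SE 0.090, 95% interval -0.25 to 0.17), in place of an SE of 0.46 without it. For Igfbp2 it was -0.098 (SE 0.069, -0.26 to 0.066), and for Igfbp6 1387625_at -0.033 (SE 0.062, -0.18 to 0.11). The interval of Igf1r became -0.059 to 0.13, and those of Igfbp5 stayed about as wide (-0.20 to 0.32 for 1370960_at). Adjusted p by limma rounded to 1 for all of these.

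**Figure D4:**
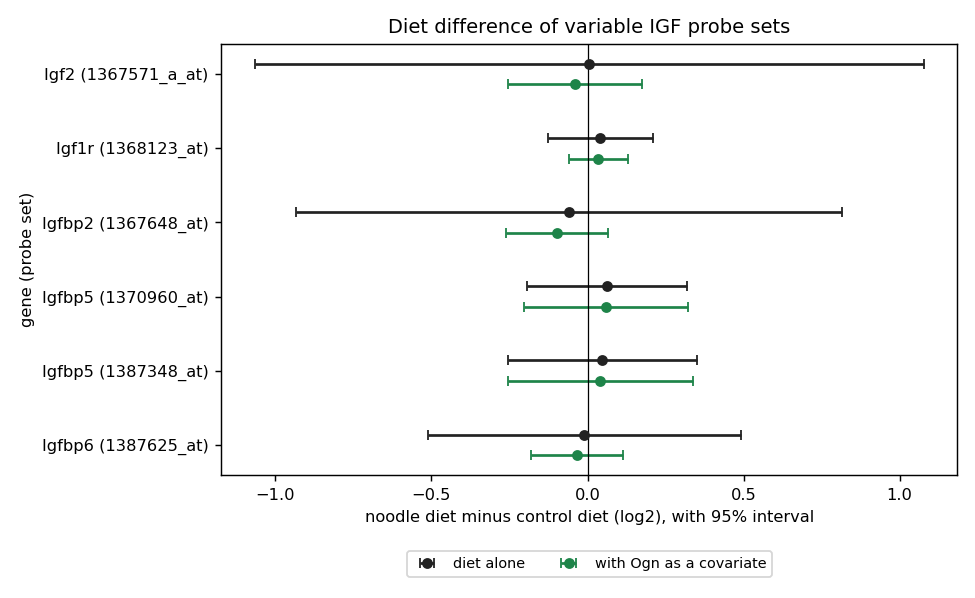
Noodle diet minus control diet (log2, with 95% interval) for the 6 variable IGF probe sets, from limma on diet alone (black) and with Ogn as a covariate (green), n = 4 and 5 rats. Every interval includes 0; those of Igf2, Igfbp2 and Igfbp6 shrink with Ogn in the model, and those of Igfbp5 hardly change.

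By likeness over the 9 rats among 930 variable probe sets of 838 other named genes, each variable member had its own nearest genes. For Igf2 these were Rarres2 (chemerin, a secreted chemoattractant; r = 0.99), Omd (osteomodulin, a small matrix proteoglycan; 0.99) and Slc6a13 (a GABA transporter; 0.99). For Igfbp2 they were Coch (cochlin, a matrix protein; 0.99), Timp3 (a metalloproteinase inhibitor; 0.99) and Aldh1a2 (a retinoic acid-making enzyme and 1 of the meninges markers listed; 0.99). For Igfbp6 1387625_at they were Bgn (biglycan; 0.98), Efemp1 (fibulin-3; 0.98) and Ifitm2 (0.98).

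Igf1r and Igfbp5 had other neighbours by this measure. For Igf1r they were Timp1 (another metalloproteinase inhibitor; r = 0.97), Col12a1 (a collagen; 0.95) and Maf (a transcription factor; 0.95). For Igfbp5 1387348_at they were Crym (mu-crystallin, which binds thyroid hormone and is found in tanycytes; 0.94), Ccnd2 (cyclin D2; 0.92) and Msi2 (an RNA-binding protein; 0.87). For Igfbp5 1370960_at they were Ccnd2 (0.84), Msi2 (0.84) and Hlf (a transcription factor; 0.82). More than 100 of the 930 probe sets had r over 0.9 with Igf2 (116), Igfbp2 (105) or Igfbp6 1387625_at (102), so the order at the top of those lists rests on very small differences. The members themselves were as alike, with r = 0.97 between Igf2 and Igfbp2, 0.94 between Igf2 and Igfbp6 1387625_at and 0.95 between Igfbp2 and Igfbp6 1387625_at.

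Further genes of IGF signalling gave no call. Of 34 listed genes (receptors, carriers, adaptors, kinases and Igf2 mRNA-binding proteins) 31 were measured, and 2 of these, Gab1 and Gsk3b, had a variable probe set as that of highest mean. By limma 0 of 31 passed between diets, with 13 higher and 18 lower on the noodle diet (14913 and 16129 of all probe sets) and a median difference of -3.1e-06, beside -4.6e-06 over all probe sets. The genes of lowest unadjusted diet p were Igfbp7, Igf2bp2, Irs1 and Shc1, from compressed probe sets. By limma 0 of 31 passed against Ogn, where 0.435% of all probe sets passed. At an unadjusted p under 0.05 there were 7 of 31, against 8.79% of all probe sets, and 18 of 31 slopes were positive, against 14019 of all 31038. The lowest of these were Grb14, Foxo3, Gab1 and Shc1. Of the 7, only Gab1 had a variable probe set, and slopes of both signs occurred among them. Gab1, a docking protein of receptor tyrosine kinases, had a slope of 0.090 on Ogn (SE 0.031, adjusted p = 0.47) and measured 8.55 in noodle-diet rats and 8.47 in control rats on average (difference 0.075, SE 0.060). H19, the imprinted neighbour of Igf2, had a compressed probe set.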

How the data were processed

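Per the labels' protocols, TRIzol and column clean-up gave total RNA of 9 hypothalami, of which 100 ng went into biotin-labelled cRNA. Log2 values of 31099 probe sets per array were deposited; the sources used here state neither probe summary nor normalization, and the log2 scale was read from the range (5.13 to 13.7). Array medians lay between 6.777 and 6.785, a spread wider than the median range of a probe set over the rats (0.00052 log2 units). Values were used as deposited, without the 57 control probe sets, and other normalizations are given further on. The number of arrays limits the precision.

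The platform annotation named probe sets, and gene numbers checked against RefSeq (GRCr8) changed 0 symbols. Differences and slopes came from limma 3.58.1 (R 4.3.3; lmFit, then eBayes with a trend in mean level, 2-sided, Benjamini-Hochberg over all probe sets, threshold 0.05), and the script was tested on simulated data. Each array is a different rat per the labels. Slopes used the variable probe set of highest mean of Ogn or Col1a2 and left out that gene's own probe sets. Planned permutation p-values for correlations were not used because the rats are divided by a gap. Members and lists were chosen with earlier results of these data known. Named genes are all members, the 3 genes of highest r to each variable probe set, up to 4 pathway genes of lowest p per test, and reference genes; Gsk3b, H19 and Igfbp3 1386881_at were singled out after values were seen. Alternatives were other normalizations, a filter on low means, variance models, covariates and leaving out each rat.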

Additional observations from a re-analysis of the deposited data

Results flagged for a closer look

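In noodle-diet rat 7 the Igfbp5 probe set 1370960_at stood at 8.54, far from the other 3 rats of its diet, which lay between 8.87 and 8.90. It was the only such value in 30 groups tested (2 diets for each of 15 measures, which were the IGF probe sets that are not compressed, the reference genes, Gab1 and the meninges score), where chance alone gives about 1.5. The second variable Igfbp5 probe set was also lowest in this rat within its diet.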

How the results depend on the processing

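The labels give no pairing of rats between the diets, so no paired analysis was run. For diet, 0 probe sets passed in every alternative. With single rats left out, the diet difference ran from -0.25 to 0.19 for Igf2, -0.024 to 0.092 for Igf1r, -0.32 to 0.12 for Igfbp2, 0.014 to 0.15 for Igfbp5 1370960_at, -0.022 to 0.16 for Igfbp5 1387348_at, -0.17 to 0.10 for Igfbp6 1387625_at and -0.0086 to 0.00093 for Igfbp6 1372168_s_at, and with Ogn as a covariate Igf2 turned to -0.041.

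The count of probe sets following Ogn was 135 (128 rising). It became 69 with a robust variance model, 5 with Ttr as a covariate and 0 with the 5 high and 4 low rats set apart, an alternative chosen after seeing the data (1300 had an unadjusted p under 0.05). It became 27002 with quantile normalization and 30211 with a common array median, of which 26635 and 29845 fell with Ogn. The array medians themselves follow Ogn (r = 0.98), so a shift to equal medians moves compressed probe sets the other way. For Col1a2 the count was 147, and 80, 0, 26733 and 30195 with the robust model, the sets apart, quantile normalization and a common median. With single rats left out the counts ran from 29 to 113 for Ogn and from 39 to 114 for Col1a2, the lowest without noodle-diet rat 1 in both.

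Slopes on Ogn of Igf2 and Igfbp2 passed in 9 of 9 fits with a rat left out (0.88 to 1.03 and 0.73 to 0.79), and lost the call with Ttr (0.99 and 0.80) and with the sets apart (0.66 and 0.64). Igfbp6 1387625_at (0.39 to 0.44) lost it without noodle-diet rat 1, 4 or 7 or control rat 2, 11 or 14 (adjusted p 0.058 to 0.17), with Ttr (0.37) and with the sets apart (0.69). With quantile normalization or a common median Igf1r (0.12 in both) and Igfbp6 1372168_s_at (0.010 and 0.012) passed, and Gab1 (0.085 and 0.086) too, as did Igfbp6 1372168_s_at on the score of other markers (0.024). Igfbp5 turned to -0.086 and -0.012 with the sets apart.

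On Col1a2, Igf2 (1.17 to 1.30) passed without any 1 rat, Igfbp2 (0.95 to 1.04) in all but the fit without noodle-diet rat 1 (adjusted p = 0.071), and Igfbp6 1387625_at (0.50 to 0.60) and 1372168_s_at (0.020 to 0.023) in 2 of 9 each. With the sets apart Igf2 (0.89), Igfbp2 (0.72), Igfbp6 1387625_at (0.77) and 1372168_s_at (0.037) did not pass and Igfbp5 1370960_at turned to -0.061. The robust model ended both Igfbp6 calls (slopes 0.56 and 0.022), and the score of other markers that of 1372168_s_at (0.023). Igf1r passed with quantile normalization (0.16) and a common median (0.16), and Gab1 likewise (0.11 in both). The cause was not tested. With 4 and 5 rats and mostly compressed values, small differences could not be detected.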
